A study of Mus musculus with 9 samples.

Results

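The FoxO transcription factors Foxo1, Foxo3 and Foxo4 and the muscle atrophy ubiquitin ligases Fbxo32, Trim63, Fbxo30, Fbxo40 and Mul1 were followed across left ventricular tissue of mice. The 8 genes were taken by name from a table of 30128 genes, and all 8 were present. Messenger RNA from 9 left ventricular samples had been sequenced, 3 libraries in each of 3 groups. The control group was wild type, and its labels name no virus. Both other groups were db/db, a genotype without a working leptin receptor that leads to obesity and diabetes. AAV9_null, an adeno-associated virus of serotype 9 labelled as null, had been given to the first of these (null virus). The other had been given AAV9_USP28, the same serotype carrying the deubiquitinating enzyme USP28 driven by the cTnT (cardiac troponin T) promoter of heart muscle cells (USP28 virus). Strain, age, sex and the time between injection and sampling were not stated in the labels. Genotype and virus change together between control and null virus, so their parts cannot be told apart. The libraries are not said to come from separate animals, so each p-value reflects only the scatter among these samples, which may be technical.

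FoxO factors are forkhead transcription factors that insulin holds back. Insulin and IGF-1 act through Akt, which phosphorylates FoxO proteins and keeps them out of the nucleus, and when that signal falls FoxO proteins enter the nucleus and switch on genes of protein breakdown, autophagy and fasting metabolism. In skeletal and heart muscle 2 ubiquitin ligases are their classic targets, atrogin-1 (encoded by Fbxo32) and MuRF1 (encoded by Trim63), which tag muscle proteins for the proteasome. Since FoxO activity is set largely by phosphorylation and location, an RNA level measures the supply of a FoxO message and not its activity.

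RefSeq promoter windows (GRCm38.p6, 250 bases before to 50 after the transcription start) were matched for 6 of the 8 genes, and Foxo4 and Fbxo32 were not among them. Windows of Trim63, the ligase that classically joins FoxO and glucocorticoid control, and of Fbxo40 and Mul1, which passed a test below, are shown 5′ to 3′ on the coding strand. Capitals mark a FoxO core (GTAAACA), a glucocorticoid response element (GAACA and TGTTC with 3 bases between) or an E-box (CANNTG), each searched on both strands.
Trim63 (chr4:134314870-134315169, plus strand): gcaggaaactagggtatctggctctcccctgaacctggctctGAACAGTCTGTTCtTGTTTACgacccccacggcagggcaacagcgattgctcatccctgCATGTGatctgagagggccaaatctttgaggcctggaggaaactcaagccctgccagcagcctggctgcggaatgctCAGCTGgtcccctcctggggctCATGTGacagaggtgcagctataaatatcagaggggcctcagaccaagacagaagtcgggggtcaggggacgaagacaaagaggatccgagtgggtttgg
Fbxo40 (chr16:36990418-36990717, minus strand): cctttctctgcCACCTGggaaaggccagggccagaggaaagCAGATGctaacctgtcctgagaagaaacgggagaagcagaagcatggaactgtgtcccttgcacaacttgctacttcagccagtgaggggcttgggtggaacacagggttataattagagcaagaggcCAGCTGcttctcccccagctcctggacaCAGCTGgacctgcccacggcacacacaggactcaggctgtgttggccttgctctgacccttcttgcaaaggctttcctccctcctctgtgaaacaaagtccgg
Mul1 (chr4:138434422-138434721, plus strand): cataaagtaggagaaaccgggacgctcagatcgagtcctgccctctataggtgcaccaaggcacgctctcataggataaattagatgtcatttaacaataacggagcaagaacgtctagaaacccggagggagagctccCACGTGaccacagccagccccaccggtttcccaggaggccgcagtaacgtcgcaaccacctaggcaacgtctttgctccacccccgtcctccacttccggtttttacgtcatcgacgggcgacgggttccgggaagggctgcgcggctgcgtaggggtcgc
In Trim63 the glucocorticoid element began 208 bases and the FoxO core 194 bases before the start, with a single base between them, and 3 E-boxes followed. A FoxO core was present in 3.65% of 32851 windows of this length, a glucocorticoid element in 0.0578% and an E-box in 72.3%. Only 2 windows held both of the first pair, and in 1 of them, that of Trim63, they lay within 10 bases of each other. The Fbxo40 window shown held 4 E-boxes, a second Fbxo40 window (chr16:36979087-36979386, minus strand, not printed) held 2 and the Mul1 window 1, and none of these held a FoxO core or a glucocorticoid element in these letters. The windows of Foxo1, Foxo3 and Fbxo30 held no FoxO core and no glucocorticoid element either. These matches are letters in a window and say nothing of binding in these hearts.

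Levels are scaled RPKM, reads per kilobase of exon corrected for depth and scaled between libraries, so they can be compared between genes. Depth recovered from the values was 35970332 to 56497662 reads per library. Heart muscle markers matched the label, with Myh6 at 12000 to 19600 scaled RPKM and 8 of 8 cardiomyocyte markers detected. Of the skeletal muscle markers, 6 genes summed to 3.24 to 5.19, and 4 adipocyte markers to 0 to 0.326. Usp28 was 12.5, 13.3 and 13.9 in control, 10.0, 7.54 and 7.82 under null virus and 9.84, 11.2 and 11.3 under USP28 virus. It fell between control and null virus (log2 difference -0.65, limma adjusted p = 0.008) and did not pass between both virus groups (0.36, limma adjusted p = 0.2), where it did without null-virus replicate 1 (0.48, limma adjusted p = 0.018). One library in each db/db group stood apart. Null-virus replicate 1 departed from its group by a mean log2 of 0.334, while the other libraries departed by 0.144 to 0.214. USP28-virus replicate 1 carried atrial messages, with the atrial myosin light chain Myl7 at 90.2 against 0 to 4.73 elsewhere. Both are named below where they move a result.

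Of the 3 FoxO genes, Foxo4 was the most abundant and the one that changed. Foxo4 (chromosome X, 101254528 to 101260873, GRCm38, plus strand) was 15, 13.1 and 15.2 in control, 22.4, 32.8 and 31.4 under null virus and 18.9, 17.7 and 20.1 under USP28 virus. All 3 null-virus libraries lay above all others and all 3 control libraries below all others, so the order was control, USP28 virus, null virus. Foxo4 rose from 14.4 ± 1.17 (SD, n = 3) in control to 28.9 ± 5.68 under null virus, a log2 difference of 0.98 (SE 0.15, 95% interval 0.64 to 1.32, limma adjusted p = 0.0036). With USP28 virus it was 18.9 ± 1.2, a log2 difference of -0.59 from null virus (95% interval -0.93 to -0.25, limma adjusted p = 0.12) and 0.39 from control (0.05 to 0.73, limma adjusted p = 0.13). Neither of these passed. Without null-virus replicate 1, whose Foxo4 level was the lowest of its group, both did in limma, at -0.77 (adjusted p = 0.0039, range over 18 alternatives 0.0039 to 0.34) and 0.39 (adjusted p = 0.0084, range 0.0084 to 0.32). Without USP28-virus replicate 1 the log2 differences were -0.59 and 0.39, not past the limma test (adjusted p = 0.28 in both).

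Foxo3 (chromosome 10, 42181841 to 42276755, minus strand) ranked next in level and showed no difference past the test. It was 4.67, 5.56 and 5.62 in control, 4.47, 6.18 and 5.28 under null virus and 4.05, 4.61 and 5.16 under USP28 virus, and the 3 groups overlapped. The log2 difference was 0.00 between null virus and control (95% interval -0.33 to 0.33) and -0.20 between USP28 virus and null virus (-0.53 to 0.14, limma adjusted p = 0.51). Within null virus the lowest value was again that of replicate 1.

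Foxo1 (chromosome 3, 52268336 to 52353221, plus strand), the FoxO gene best known from insulin signalling in liver, was scarce in these libraries. It was 0.543, 0.547 and 0.624 in control, 0.535, 0.474 and 0.519 under null virus and 0.492, 0.603 and 0.551 under USP28 virus, from 140 to 272 reads per library. That level exceeded the mean of 6.94% of tested genes, against 89.7% for Foxo4, and 7 libraries reached the threshold of 0.5 RPKM. The null-virus values lay just under the control values (log2 -0.14, 95% interval -0.51 to 0.23, limma adjusted p = 0.57), and USP28 virus overlapped both. The non-coding gene Gm20402 shares 674 bases, 7.78% of the Foxo1 exons, on the opposite strand, and the strand setting of the counting was not stated.

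Summed over the 3 genes, FoxO messages were 20.3 ± 1.12 in control (scaled RPKM), 34.7 ± 6.44 under null virus and 24.0 ± 1.53 under USP28 virus (SD, n = 3). Foxo4 made up 71.1% ± 3.05 of that sum in control, 83.1% ± 1.35 under null virus and 78.6% ± 1.83 under USP28 virus. For the sum and for the share no group overlapped another, and each exact two-sided permutation test gave p = 0.1, the smallest that 3 against 3 allows. Foxo4 alone already separated the 3 groups and makes up most of the sum, so these tests restate it and add no separate result. Foxo6, the remaining family member, was under the filter on low values at 2 to 24 reads per library and was not tested.

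**Figure D1:**
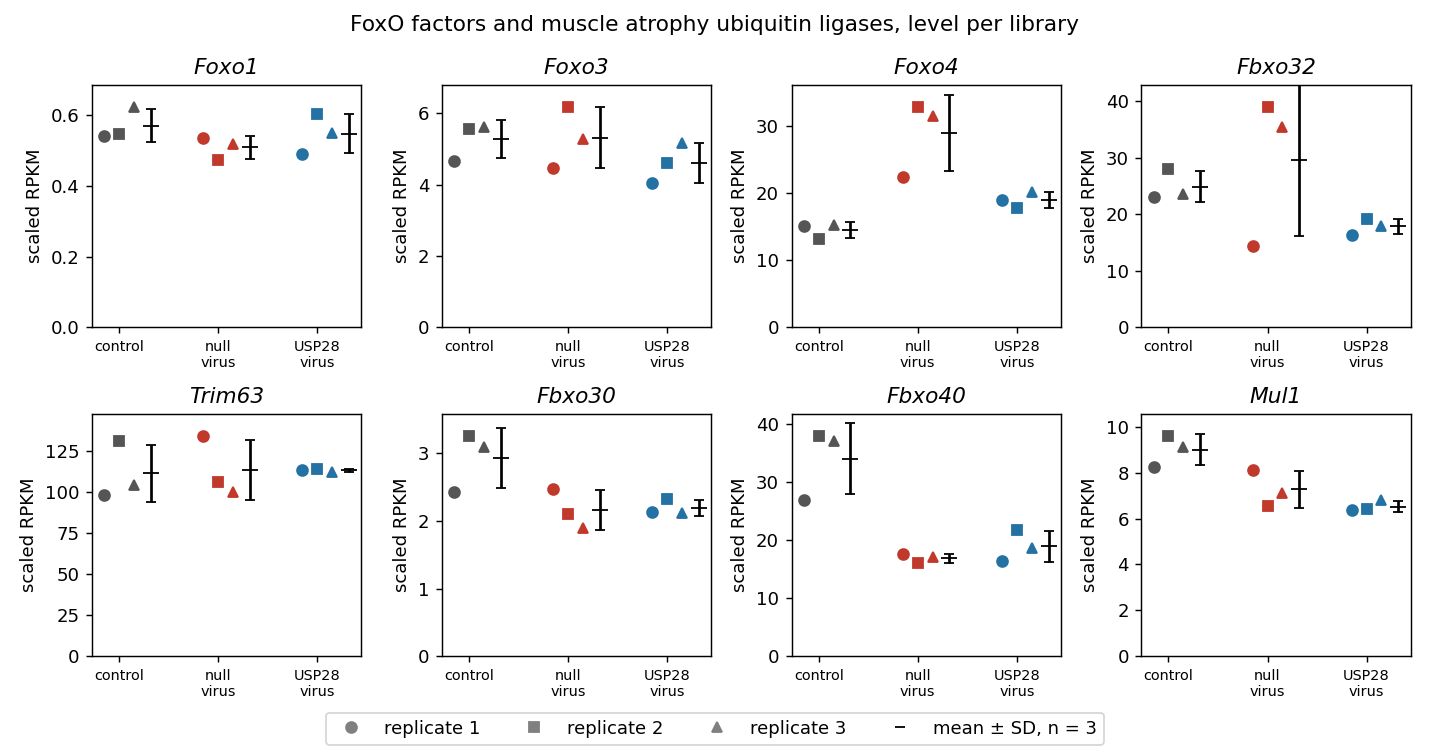
Scaled RPKM of each of the 8 genes in every library, by group, with the replicate as the marker shape and the mean ± SD (n = 3) as a black bar; each axis starts at 0. Foxo4 runs from 13.1 in control to 32.8 under null virus, Fbxo40 is lower in all 6 db/db libraries than in control, and Fbxo32 in null-virus replicate 1 (14.3) lies far below the other null-virus libraries (39.0 and 35.5).

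Neither of the classic pair of atrophy ligases passed a comparison with all libraries. Fbxo32 (chromosome 15, 58175879 to 58214892, minus strand) encodes atrogin-1, the F-box protein that brings substrates such as calcineurin to an SCF ubiquitin ligase. It was 23.1, 28.1 and 23.5 scaled RPKM in control, 14.3, 39.0 and 35.5 under null virus and 16.4, 19.1 and 18 under USP28 virus. Null-virus replicate 1 had the lowest Fbxo32 of all 9 libraries, and the other null-virus libraries the highest. All USP28-virus values lay under all control values. With all libraries Fbxo32 passed no comparison. The log2 differences were 0.13 (SE 0.33) for null virus against control, -0.61 for USP28 virus against null virus and -0.48 for USP28 virus against control (limma adjusted p = 0.8, 0.37 and 0.37).

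Both Fbxo32 differences that involve null virus depended on its replicate 1. Without it the log2 difference between null virus and control was 0.59 (limma adjusted p = 0.0049, range over 18 alternatives 0.0049 to 0.91) and between both virus groups -1.07 (limma adjusted p = 0.0027, range 0.0027 to 0.59). Between USP28 virus and control it stayed at -0.48, and its limma adjusted p was 0.0074 (range 0.0074 to 0.6). That library enters there only through the shared scaling, filter, estimate of spread and adjustment over all genes. Without null-virus replicate 2 or 3 the log2 difference between null virus and control was -0.14 or -0.08. The non-coding gene Gm15943, which shares 186 bases with Fbxo32 exons on the opposite strand, went through the libraries in the same order of levels within null virus, at 1.22, 4.23 and 3.74 scaled RPKM. It was 2.74, 3.57 and 3.27 in control and 1.77, 2.09 and 2 under USP28 virus. Reads of both genes cannot be told apart where they overlap unless strand was used in counting.

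Trim63 (chromosome 4, 134315120 to 134329629, plus strand) encodes MuRF1, the RING-finger ligase that binds titin and acts on thick-filament proteins. It was the most abundant of the 8 genes and varied little between groups. Its level was 98.3, 131 and 104 in control, 134, 106 and 100 under null virus and 113, 114 and 112 under USP28 virus, with all groups overlapping. The log2 differences were 0.03 (95% interval -0.30 to 0.36), 0.00 (-0.33 to 0.33) and 0.03 (-0.30 to 0.36) for null virus against control, USP28 virus against null virus and USP28 virus against control. Null-virus replicate 1, lowest of all in Fbxo32, was the highest of all in Trim63.

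The ratio of Trim63 to Fbxo32 was 4.25, 4.65 and 4.43 in control, 9.36, 2.72 and 2.82 under null virus and 6.88, 5.97 and 6.22 under USP28 virus. The control and USP28-virus groups did not overlap (4.45 ± 0.196 against 6.36 ± 0.474, SD, n = 3, exact two-sided permutation p = 0.1, the smallest possible). Fbxo32 alone already separated these groups, and the ratio was chosen after its values were seen, so it is no separate result. Null virus spanned both, with replicate 1 above every other library and replicates 2 and 3 below every other library.

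**Figure D2:**
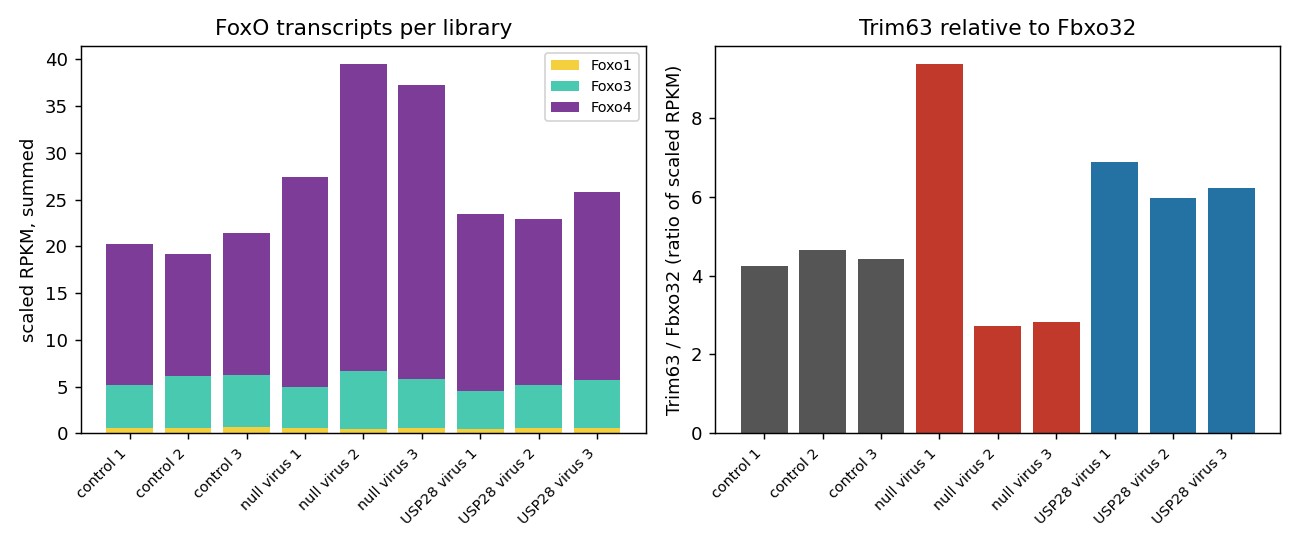
Left, scaled RPKM of Foxo1, Foxo3 and Foxo4 stacked for each of the 9 libraries; right, the ratio of Trim63 to Fbxo32 in the same libraries, coloured by group. The FoxO sum is highest in null-virus replicates 2 and 3 and consists mainly of Foxo4, and the ratio is 9.36 in null-virus replicate 1 against 2.72 and 2.82 in the other null-virus libraries.

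Of the 5 member ligases, Fbxo40 had the largest fall between control and null virus. Fbxo40 (chromosome 16, 36963460 to 36990467, minus strand) encodes a muscle-restricted F-box protein known for marking the insulin receptor substrate IRS1 for breakdown. It was 26.9, 37.9 and 37.0 scaled RPKM in control, 17.5, 16 and 17.0 under null virus and 16.4, 21.7 and 18.6 under USP28 virus. Every db/db library lay under every control library, and both db/db groups overlapped. Fbxo40 fell from 33.9 ± 6.09 (SD, n = 3) in control to 16.8 ± 0.723 under null virus (log2 difference -0.99, SE 0.15, 95% interval -1.34 to -0.65, limma adjusted p = 0.0037). It passed there in all 18 alternatives. With USP28 virus it was 18.9 ± 2.68, also lower than control (log2 -0.83, SE 0.15, limma adjusted p = 0.013). That call was lost without control replicate 2 or 3 or USP28-virus replicate 1 (limma adjusted p = 0.059, 0.06 and 0.064, range over 18 alternatives 0.0042 to 0.064). Between both virus groups the log2 difference was 0.16 (95% interval -0.19 to 0.51, limma adjusted p = 0.61).

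Fbxo30 (chromosome 10, 11281330 to 11298052, plus strand) encodes MUSA1, an F-box ligase of muscle atrophy held down by BMP signalling. It was 2.43, 3.26 and 3.10 in control, 2.48, 2.10 and 1.90 under null virus and 2.13, 2.33 and 2.12 under USP28 virus. Only null-virus replicate 1 among the db/db libraries reached the control range. The log2 differences from control were -0.42 under null virus (95% interval -0.75 to -0.10, limma adjusted p = 0.064) and -0.39 under USP28 virus (-0.72 to -0.07, limma adjusted p = 0.11), neither past the test. Without null-virus replicate 1 both passed, at -0.52 (limma adjusted p = 0.021, range over 18 alternatives 0.021 to 0.2) and -0.39 (limma adjusted p = 0.04, range 0.04 to 0.3).

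Mul1 (chromosome 4, 138434671 to 138442265, plus strand) encodes a RING ligase of the mitochondrial outer membrane that acts on mitofusin 2. It was 8.26, 9.61 and 9.14 in control, 8.14, 6.57 and 7.11 under null virus and 6.36, 6.41 and 6.80 under USP28 virus. All db/db values lay under all control values, though null-virus replicate 1 came close to the lowest control. Mul1 fell from 9.00 ± 0.686 in control to 6.52 ± 0.242 under USP28 virus (SD, n = 3; log2 difference -0.46, SE 0.11, limma adjusted p = 0.027). With null virus it was 7.27 ± 0.8, a log2 difference of -0.31 that did not pass (limma adjusted p = 0.066), and -0.39 without null-virus replicate 1, which did (limma adjusted p = 0.01, range over 18 alternatives 0.01 to 0.2). The fall with USP28 virus did not pass with library totals alone, with no filter or with the replicate number as a block (limma adjusted p = 0.056, 0.058 and 0.058). It was also lost without control replicate 2 or 3 or without each USP28-virus library in turn (limma adjusted p = 0.061 to 0.11).

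Counts of the 8 genes were set beside the shares over all 14104 tested genes, without a test of the difference. Between null virus and control 2 of 8 passed, Foxo4 higher and Fbxo40 lower, against 22.5% of all genes, and 4 of 8 had groups that did not overlap, against 41.2%. Between both virus groups 0 of 8 passed in limma, against 0.44% of all genes. At an unadjusted limma p under 0.05 there was 1 of 8 (Foxo4), against 2351 of all 14104 genes. With limma voom on recovered reads 0 of 8 passed, and the count over all genes is given further below. Both virus groups did not overlap for 1 of 8 (Foxo4, lower), against 11.7% of all genes lower and 11.5% higher, 23.2% in all. Between USP28 virus and control 2 of 8 passed, Fbxo40 and Mul1, both lower, against 11.8%, and 5 of 8 did not overlap, against 45.6%. When null-virus replicate 1 was left out the counts were 5, 2 and 5, against 31.7%, 6.39% and 29.2% of all genes. The 2 between both virus groups, Foxo4 and Fbxo32, were lower, as were 3.47% of all genes, with 2.92% higher. The comparisons share libraries, so they are not independent of each other. In tissue RNA, fewer cells of a type and less RNA per cell cannot be told apart.

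**Figure D3:**
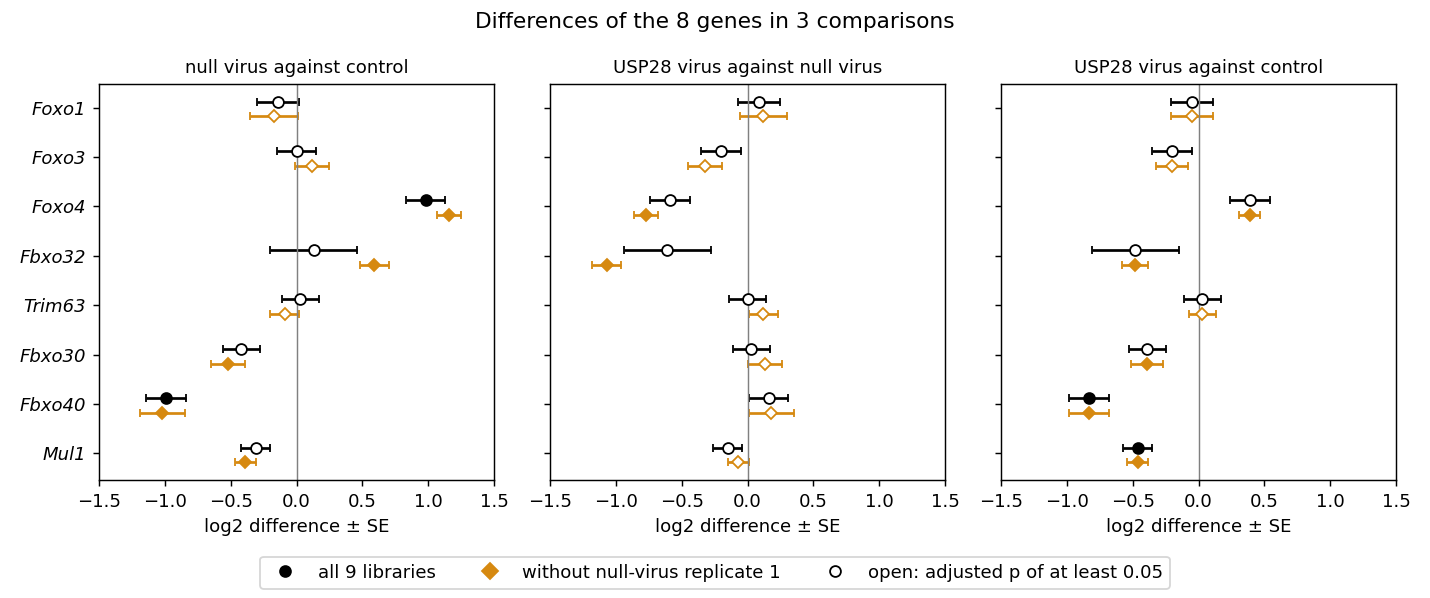
Log2 difference ± SE (limma) of the 8 genes in each of the 3 comparisons, with all 9 libraries (circles) and without null-virus replicate 1 (diamonds); filled symbols have an adjusted p under 0.05. Foxo4 lies at 0.98 and Fbxo40 at -0.99 for null virus against control, Trim63 lies near 0 in each panel, and the Fbxo32 estimate moves from 0.13 to 0.59 when the library is left out.

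Cell type markers moved beside these genes. The 6 endothelial markers summed to 68.0 to 80.6 scaled RPKM in control, 83.3 to 110 under null virus and 92.0 to 107 under USP28 virus, without overlap between control and db/db. With all libraries 3 of the 6 rose and 0 fell between control and null virus, against 10.2% and 12.3% of all genes. Without null-virus replicate 1, 4 rose and 1 fell, against 15.3% and 16.4%. The 1 that fell was Kdr (log2 -0.57, limma adjusted p = 0.046). The 8 cardiomyocyte markers summed to 28039 to 31964 in control, 23513 to 34848 under null virus, where the top value is that of replicate 1, and 25900 to 29898 under USP28 virus. Myh6 dominated that sum (mean 18100 in control), and single markers went opposite ways. From control to null virus the mean of Actc1 went from 1710 to 565 and that of Tnnt2 from 5800 to 7580. With all libraries 0 of the 8 rose and 1 fell between these groups, against 10.2% and 12.3% of all genes. Without null-virus replicate 1, 1 rose and 3 fell, against 15.3% and 16.4%. The 6 macrophage markers summed to 26.7 to 33.3 in control, and to 20.1 to 24.5 and 19.9 to 24.6 in the same order of db/db groups, again without overlap between control and db/db. The sums of fibroblast, mural and T and B cell markers overlapped between control and null virus, at 61.4 to 82.6, 191 to 278 and 0.0321 to 0.303 over all libraries. Single markers within them went opposite ways. Of 6 fibroblast markers Lum and Col1a1 fell (log2 -1.31 and -0.82, limma adjusted p = 0.00093 and 0.014) while Dcn was at 0.31 (0.13), and of 6 mural markers 1 rose and Abcc9 fell (-0.87, 0.013). The 4 atrial markers summed to 129 to 199, 79.8 to 341 and 146 to 1436. No marker of these lists was at 0 in all libraries. Their part in the Foxo4, Fbxo40 and Mul1 differences was not tested.

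Established FoxO targets were counted from a list of 26 genes, 25 of them tested. The list was chosen with earlier results of these data known, so its counts are no independent test. Between null virus and control 10 rose and 1 fell, with a median log2 difference of 0.35, against 10.2% higher, 12.3% lower and a median of 0.01 over all genes. Pdk4, the kinase that shuts pyruvate dehydrogenase, was 141, 150 and 176 in control and 564, 825 and 801 under null virus (log2 2.22, limma adjusted p = 4e-04). Cat, which encodes catalase, rose by a log2 of 1.35 and Cdkn1a, the cell cycle inhibitor p21, by 1.24 (limma adjusted p = 0.00049 and 0.0015). Ulk1, which starts autophagy, was the single target that fell (log2 -0.34, limma adjusted p = 0.033). Leaving out null-virus replicate 1 gave 14 higher and 3 lower, with a median of 0.55, and leaving out each library in turn gave 9 to 14 and 0 to 3. All genes were called higher in 15.3% and lower in 16.4% without that library.

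With USP28 virus 2 FoxO targets fell from their null-virus level and 0 rose, with a median log2 difference of -0.26, against 0.156% lower and 0.284% higher over all genes. They were Cdkn1a (5.76, 8.34 and 7.05 under null virus, 3.69, 2.83 and 3.12 under USP28 virus, log2 -1.10, limma adjusted p = 0.029) and Pdk4 (328, 355 and 344 under USP28 virus, log2 -1.07, limma adjusted p = 0.039). With null-virus replicate 1 left out there were 8 lower and 2 higher, against 3.47% and 2.92% of all genes in that fit. No gene of the table passed this comparison without null-virus replicate 2 or 3, USP28-virus replicate 1 or 2 or control replicate 2, with the replicate block, or with the 2 groups alone, so both calls were lost there. Against control, 3 targets were higher under USP28 virus (Irs2, Pdk4 and Cat) and 1 was lower (Ulk1), against 5.35% and 6.47% of all genes, and 9 and 6 without null-virus replicate 1, against 13.5% and 15.7%. Several targets of the list answer to other regulators too, and Pdk4 and Cdkn1a are also glucocorticoid targets.

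Upstream, genes of the insulin to Akt route were counted in the same way. Of 16 tested, 1 rose and 1 fell between null virus and control, against 10.2% and 12.3% of all genes. Between both virus groups 0 passed, against 0.44%. Between USP28 virus and control 2 rose and 2 fell, against 5.35% and 6.47%. Leaving out each library in turn gave 1 to 4 higher and 1 to 2 lower in the first of these, and 2 to 3 higher and 0 to 4 lower in the last. Without null-virus replicate 1 they were 4 and 1, against 15.3% and 16.4% of all genes, and 3 and 4, against 13.5% and 15.7%. Akt1, the kinase, was 25.5, 25.1 and 26.8 in control, 18, 17.8 and 18.1 under null virus (log2 -0.52, limma adjusted p = 0.0036) and 19.5, 21.1 and 19.3 under USP28 virus (-0.37, limma adjusted p = 0.022). Akt2, the form tied most closely to insulin, passed nowhere (log2 0.12, -0.24 and -0.12). Sgk1, an Akt-like kinase that also phosphorylates FoxO, rose by 1.05 under null virus and 0.80 under USP28 virus (limma adjusted p = 0.00093 and 0.0046).

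The receptor substrates, of which Fbxo40 is known to mark IRS1, parted under USP28 virus. Irs1 was 1.34, 1.99 and 2.42 in control, 1.05, 1.87 and 1.51 under null virus and 0.853, 1.04 and 0.772 under USP28 virus, and fell by a log2 of 1 between the first and the last (limma adjusted p = 0.036). Irs2, itself a FoxO target, was 0.341, 0.486 and 0.760, then 1.38, 0.665 and 1.01, then 2.56, 2.91 and 3.19. It rose by a log2 of 2.30 between control and USP28 virus (limma adjusted p = 0.0039). Between both virus groups Irs2 was at 1.46 (limma adjusted p = 0.07) and Irs1 at -0.65 (0.25).

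**Figure D4:**
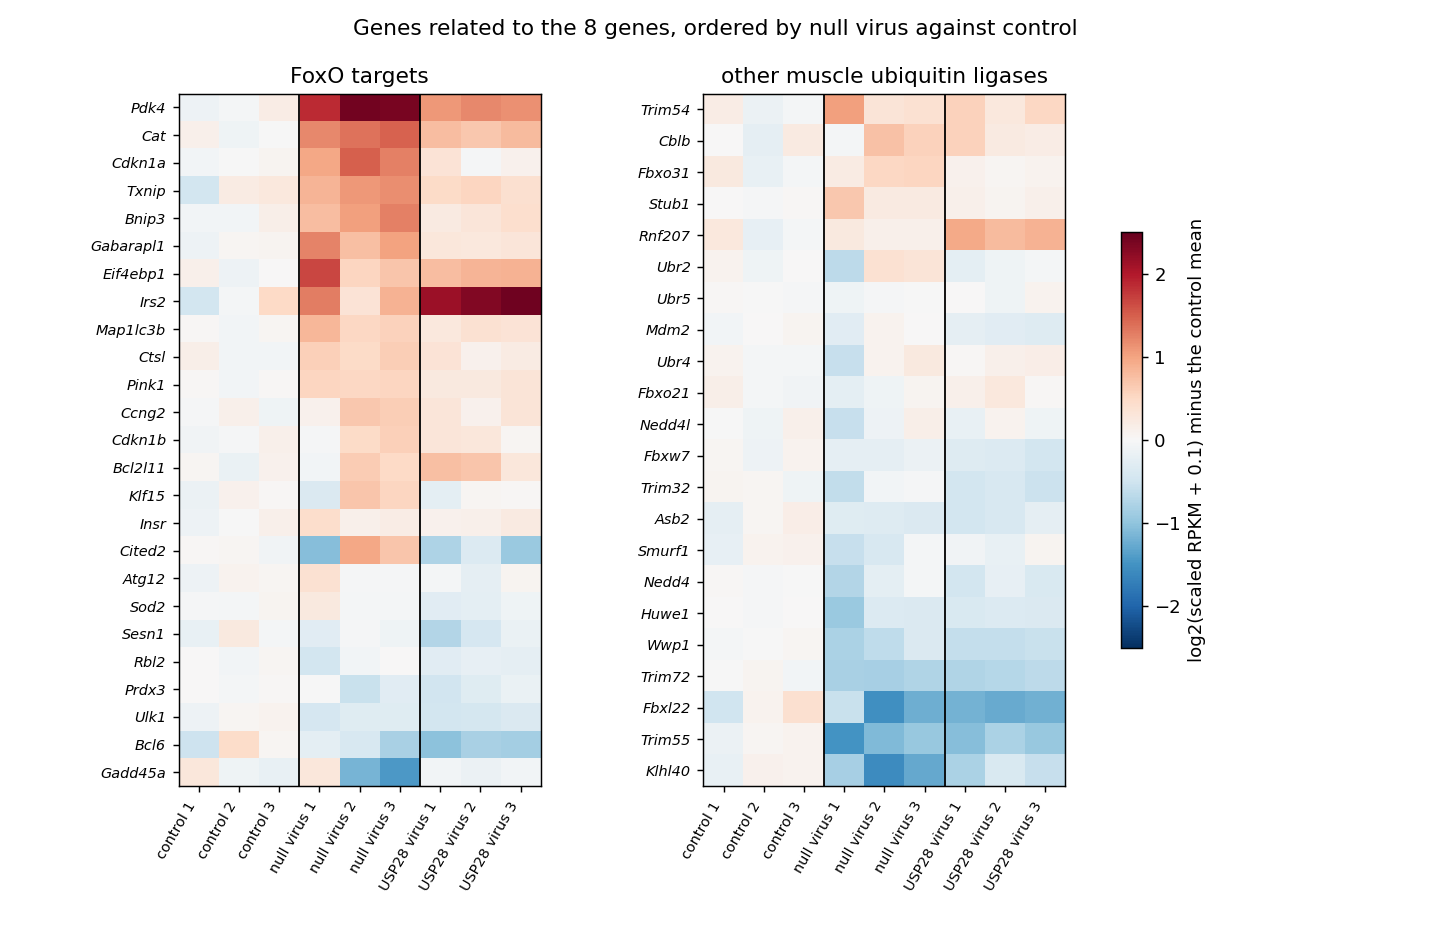
Each gene's log2(scaled RPKM + 0.1) minus its control mean in the 9 libraries, for 25 FoxO targets (left) and 22 other muscle ubiquitin ligases (right), ordered by the difference between null virus and control; red is higher, blue lower. Pdk4, Cat and Cdkn1a are darkest red with null virus, Irs2 under USP28 virus, and Klhl40 and Trim55 are blue in the db/db libraries.

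Among other muscle ubiquitin ligases 0 of 22 rose and 6 fell between null virus and control, against 10.2% and 12.3% of all genes, with a median log2 difference of -0.19. The counts were 4 and 6 when null-virus replicate 1 was left out, against 15.3% and 16.4% of all genes, with a median of -0.03. Trim55 encodes MuRF2, a sarcomeric relative of MuRF1. It was 37.2, 42.2 and 43.7 in control, 14.5, 19.0 and 21.1 under null virus (log2 -1.18, limma adjusted p = 0.0017) and 19.4, 23.6 and 21.3 under USP28 virus (-0.94, limma adjusted p = 0.0081). Trim54, which encodes MuRF3, was 350 ± 42.4 in control, 530 ± 154 under null virus and 478 ± 53.3 under USP28 virus (SD, n = 3) and passed in neither db/db group (log2 0.57 and 0.45, limma adjusted p = 0.07 and 0.18). Its null-virus values were 708, 432 and 452, and without replicate 1 of that group the differences were 0.35 and 0.45 (limma adjusted p = 0.058 and 0.016). Per length Trim54 was thus the most abundant MuRF message, then Trim63, then Trim55. Trim72, the membrane repair protein MG53, fell by 0.80, and Klhl40, a cullin-3 adaptor of the thin filament, by 1.22 (limma adjusted p = 0.001 and 0.0043).

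Between both virus groups 0 of these 22 ligases passed in limma, against 0.44% of all genes. Without null-virus replicate 1 there were 2 higher and 2 lower, against 2.92% and 3.47% of all genes. Against control, USP28 virus had 1 higher and 5 lower, against 5.35% and 6.47% of all genes, with 1 to 2 and 2 to 11 when each library was left out in turn. The counts 2 and 11 were those without null-virus replicate 1, where 13.5% and 15.7% of all genes were called higher and lower. With all libraries the higher one was Rnf207, a cardiac RING-finger protein (18, 13.0 and 14.5 in control, 17.9, 16.5 and 16.5 under null virus, 29.2, 26.1 and 27.6 under USP28 virus, log2 0.87, limma adjusted p = 0.0057). Trim72, Trim55 and Wwp1, a HECT ligase, led the lower ones, with Trim72 at -0.70 and Wwp1 at -0.59 (limma adjusted p = 0.0035 and 0.017).

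Partners that the F-box and RING ligases need were counted as a list of 20 ubiquitin, conjugating enzyme and cullin genes. Between null virus and control 1 rose and 3 fell (1 to 3 and 2 to 4 leaving out each library in turn), shares near or under the 10.2% and 12.3% of all genes. Ubb, a polyubiquitin gene, rose by 0.57 (limma adjusted p = 0.0064), and the conjugating enzymes Ube2n, Ube2g1 and Ube2d1 fell by 0.52, 0.66 and 0.66 (limma adjusted p = 0.0082, 0.0092 and 0.013). Between USP28 virus and control 1 rose and 4 fell (0 to 2 and 0 to 8), against 5.35% and 6.47% of all genes. Without null-virus replicate 1, 2 rose and 8 fell there, against 13.5% and 15.7%. Between both virus groups 0 passed, against 0.44% of all genes. Genes that modify FoxO proteins had 4 of 14 lower and 0 higher with null virus, against 12.3% and 10.2% of all genes, and 2 to 4 lower and 0 to 1 higher leaving out each library in turn. Without null-virus replicate 1, 4 were lower and 1 was higher, against 16.4% and 15.3%. With all libraries the lower ones included Prkaa2, a catalytic subunit of the energy sensor AMPK (log2 -1.39, limma adjusted p = 0.0038), Mapk8, the stress kinase JNK1 (-0.62, 0.006), and Xpo1, the nuclear exporter (-0.66, 0.031). Prkaa2 and Mapk8 were also lower under USP28 virus (-1.08 and -0.49, limma adjusted p = 0.017 and 0.025).

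Atrophy inputs other than insulin had 3 of 18 members higher and 3 lower between null virus and control, against 10.2% and 12.3% of all genes, with 2 to 6 and 0 to 3 when each library was left out in turn. Without null-virus replicate 1 there were 6 and 3, against 15.3% and 16.4%. Ddit4, an inhibitor of mTORC1 induced by stress and glucocorticoids, was at 2.88 ± 0.591 in control, 8.36 ± 0.969 under null virus and 8.51 ± 1.94 under USP28 virus (SD, n = 3; log2 1.52 in each, limma adjusted p = 0.002 and 0.0044). Tnfrsf1a, a TNF receptor, rose by 0.56, and Nr3c1, the glucocorticoid receptor, fell by 0.39 (limma adjusted p = 0.0031 and 0.032). The glucocorticoid targets Fkbp5 and Klf15 shared the split seen in Fbxo32, but not every gene named here as such a target did. Ddit4 was 7.42, 8.29 and 9.36 under null virus, with replicate 1 above every control library. Pdk4 and Cdkn1a likewise had replicate 1 lowest in its group but above every control library. Trim63 had it highest. A link of the split to glucocorticoids was not tested. Fkbp5 was 4.81, 3.64 and 2.47 in control, 4.47, 9.02 and 8.91 under null virus and 4.63, 4.78 and 4.76 under USP28 virus (null virus against control, log2 1, limma adjusted p = 0.043). Klf15 was 8.29, 9.83 and 9.33, then 7.13, 14.9 and 13.3, then 7.70, 9.43 and 9.31, and passed in no comparison with all libraries (limma adjusted p = 0.41, 0.48 and 0.91). Leaving out null-virus replicate 1 moved its log2 difference from 0.30 to 0.62 between null virus and control and from -0.35 to -0.68 between both virus groups, both then past the test (limma adjusted p = 0.0055 and 0.016). In both, null-virus replicate 1 lay far under the other null-virus libraries.

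Known substrates of the ligases were measured beside them, as messages only. Of 13 tested, 1 rose and 4 fell between null virus and control, against 10.2% and 12.3% of all genes, with 0 to 3 and 3 to 6 when each library was left out in turn. Without null-virus replicate 1 there were 3 and 6, against 15.3% and 16.4%. Mfn2, the mitofusin that Mul1 acts on, was 91.4, 93.4 and 96.4 in control, 46.0, 43.6 and 44.6 under null virus and 62.4, 74.6 and 66.4 under USP28 virus. It fell with null virus (log2 -1.07, limma adjusted p = 0.00065) and was higher with USP28 virus than with null virus (0.59, limma adjusted p = 0.042), but 2 of its deposited values are not whole reads, and this call too was lost wherever no gene passed between both virus groups. Dnm1l, the fission GTPase, fell by 1.12 and Mybpc3, a thick-filament protein, by 0.88 under null virus (limma adjusted p = 0.00089 and 0.0028), while Des, the intermediate filament desmin, rose by 0.61 (limma adjusted p = 0.022).

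For the genes that passed a comparison, the tested genes with the most similar profile were sought by the root mean square difference of centred log2 values over 9 libraries. Nearest to Foxo4, whose own root mean square departure was 0.433, were Serinc3, Ednrb and Acer2 (0.096, 0.099 and 0.101). Nearest to Fbxo40 (0.465) were Ifngr2, Cpox and Slmap (0.102, 0.113 and 0.113). Nearest to Mul1 (0.212) were Oxnad1, Nol8 and Tmem126b (0.051, 0.054 and 0.060). Among the 8 genes themselves, Mul1 and Fbxo30 were the closest pair (0.121), and Foxo4 and Fbxo40 the farthest apart (0.855).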

How the data were processed

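Polyadenylated RNA was made into directional libraries and read in pairs, per the labels' protocols. HISAT2 and DESeq2 are named without role or version, and a build of another species, GRCh38, is named, per the submitters' processing notes. Coordinates of 7 of the 8 genes equal GENCODE M21 spans on GRCm38, and Fbxo32 ends 40 bases short of its span. Neither the counting program nor its strand setting is given in the sources used here. The authors deposited RPKM values with gene length. That unit was read from the values: RPKM times length was a whole number of reads for 99.9839% of values above 0 (tolerance 0.01 reads), and for all 72 values of the 8 genes. No pair of replicates was identical (chi-square per degree of freedom 20.8 to 160).

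From these, RPKM were scaled by a trimmed mean of M values (30% of ratios and 5% of levels trimmed), and log2(scaled RPKM + 0.1) was fitted with limma 3.58.1 under R 4.3.3 (prior variance trended and robust), all 9 libraries and 3 groups in 1 fit. Differences use that scale and understate the change of low genes. Tested were the 14104 genes reaching 0.5 RPKM in 3 or more libraries, Foxo1 only narrowly, with Benjamini-Hochberg adjustment over all of them within each comparison. A gene passed, rose or fell at an adjusted p under 0.05. The fit was run on simulated counts with the same dispersion for every gene and no library that stood apart. That run therefore says nothing of calls that depend on null-virus replicate 1. Exact permutation tests were two-sided. The members, lists, markers and tests were chosen with earlier results of these data known. Named were the 8 genes, up to 3 leading genes of each list in each direction that passed, 10 genes of interest, and the 3 genes most alike each member that passed, leaving out unnamed gene models. The markers, antisense genes, and ratios were added to these, the last after their values were seen. Figures used matplotlib 3.10.9 in Python 3.11.15.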

Additional observations from a re-analysis of the deposited data

How the results depend on the processing

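Foxo4 higher and Fbxo40 lower between null virus and control held in all 18 alternatives (log2 0.87 to 1.16 and -1.15 to -0.91). The number of the 8 genes passing was 2, 0 and 2 (null virus against control, USP28 virus against null virus, USP28 virus against control). Leaving out 1 library each gave 2 to 5, 0 to 2 and 0 to 5. The last count was 1 with library totals alone, 1 with no filter, 1 with the replicate block and 4 with the 2 groups alone. Over all genes 3168, 62 and 1667 passed. Leaving out 1 library gave 1452 to 4438, 0 to 895 and 374 to 4094. With no filter they were 2077, 10 and 944, and with the 2 groups alone 1673, 0 and 3842. Library totals gave 31 and 921 for the latter pair, of which 87.1% and 66.4% were higher, against 64.5% and 45.3%. Limma voom on recovered reads called 3562, 193 and 2325. With the replicate block they were 2760, 0 and 1305. For the 0 counts between both virus groups, 2351 genes had an unadjusted p under 0.05 with all libraries. Same-numbered libraries did not deviate together (correlations -0.03 to 0.06, and 2 or 3 of 6 libraries closest to their own number), so the number names a library only, and the block lost Mul1 between USP28 virus and control.

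Directions reversed only among differences near 0 with all libraries, and none passed with the sign reversed. They were Foxo3 between null virus and control (-0.02 with library totals, -0.01 with the 2 groups alone, -0.12 to 0.12 leaving out 1 library), Fbxo32 there (-0.14 to 0.59), Trim63 there (-0.09 to 0.15), between both virus groups (-0.01 with median of ratios, 0 with voom, -0.08 to 0.12) and between USP28 virus and control (-0.05 to 0.15), Fbxo30 between both virus groups (-0.06 to 0.13), and Foxo1 between USP28 virus and control (0.01 with library totals, -0.11 to 0.01). Of these, Fbxo32 did pass at 0.59, without null-virus replicate 1 (limma adjusted p = 0.0049). The causes were not tested. Foxo1 could not be tested at a threshold of 1 RPKM. Foxo1 lay near the filter on low values and Foxo6 under it, and 3 libraries a group limit all results.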

Other observations

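Fbxo32 passed no comparison with all libraries, so the genes most like it were looked up after its values were seen. They were C4b, Klhl38 and Furin, at root mean square differences of 0.117, 0.122 and 0.158 on the log2 scale over 9 libraries, against 0.465 for Fbxo32's own departures. Klhl38 encodes a kelch protein whose function in the heart is not well described.

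Cited2, a FoxO target that damps hypoxia signalling, did not pass with all libraries and showed the split of Fbxo32 within null virus. Without null-virus replicate 1 it was at a log2 difference of 0.83 for null virus against control and -1.51 for USP28 virus against null virus (limma adjusted p = 0.0083 and 0.0038). Gadd45a, another FoxO target, did not pass with all libraries either (-0.77 and 0.68, limma adjusted p = 0.17 and 0.38), and was at -1.30 and 1.20 without that library (limma adjusted p = 0.00077 and 0.0047). Both were picked after their values were seen.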
